A study of Mus musculus with 5 samples.

Results

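A set of 43 mouse imprinted genes in 17 imprinted clusters was followed through the occupancy maps of the corepressor KAP1 and the Polycomb protein Ring1b in embryonic stem cells. The genes were chosen by symbol, and 38 of the 43 were named in at least 1 of the 6 promoter and gene tables that the authors deposited. The background was 26219 RefSeq genes. H19, Zim1, Usp29, Mirg and Peg10 had no row under their own symbol. Usp29, a deubiquitinase gene, and Peg10, a retrotransposon-derived gene needed for the placenta, were carried by accession in the promoter rows of their neighbours Peg3 and Sgce.

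Imprinted genes are transcribed from 1 parental allele, and they lie in clusters controlled by short regions, the germline differentially methylated regions (DMRs), whose DNA methylation is set in the egg or the sperm. At these regions, zinc finger proteins such as ZFP57 bind the methylated allele and recruit KAP1 (encoded by Trim28), which brings histone methyltransferase and DNA methyltransferase partners and keeps the mark through early development. Ring1b (encoded by Rnf2) is the ubiquitin ligase of Polycomb repressive complex 1, which places ubiquitin on histone H2A and holds developmental genes silent, and Polycomb proteins take part in the silencing of several imprinted domains. The peak lists do not separate the parental alleles.

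Chromatin immunoprecipitation with sequencing was done in 5 libraries, 1 per group. Ring1b was precipitated from KAP1 fl/fl cells given 4-OH-Tamoxifen, from Ring1b fl/fl cells given 4-OH-Tamoxifen and from Ring1b fl/fl cells given vehicle (ethanol), and KAP1 from KAP1 fl/fl cells given 4-OH-Tamoxifen or vehicle. Treatment lasted 24 h and was followed by 48 h of culture, with tamoxifen still present for Ring1b fl/fl cells and absent for KAP1 fl/fl cells, on irradiated mouse embryonic fibroblasts. The fl/fl alleles are deleted after tamoxifen, and neither the recombinase driver nor the number of clones is known here. Peak lists give no expression, so the identity of the cells was not checked, and the share of feeder chromatin was not measured. Because each group is a single library, conditions could not be tested against each other, and no value given here has a replicate check.

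The KAP1 list and the Ring1b list hold peaks of the vehicle library called against the tamoxifen library of the same line. The third list holds Ring1b peaks of tamoxifen-treated KAP1 fl/fl cells called against tamoxifen-treated Ring1b fl/fl cells, which is another line, and is called the knockout list here. A peak score is 10 times the -log10 p computed by the authors for that library against its control, and it ranks peaks only within its own list. The KAP1 list holds 82775 peaks with a median score of 96.15, the Ring1b list 13516 with a median of 116.36, and the knockout list 8928 with a median of 58.86. In the Ring1b list 732 peaks are tied at 3100, so peaks with that score cannot be ordered. Promoter tables give whole-number scores in windows of about 2 kb and sort each promoter into shared (KAP1 and Ring1b), KAP1 only or Ring1b only.

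Of the 14 listed genes with a germline DMR at the promoter, 11 have a promoter sequence in the RefSeq table (build GRCm38.p6), and 6 of these hold TGCCGC, the hexamer that ZFP57 binds when its CpG is methylated. These 6 are printed 5′ to 3′ on the strand of the gene, from 250 bases before to 50 bases after the transcript start. They show how the letters lie in promoters that differ in KAP1 and Ring1b peaks. Capitals mark the hexamer as TGCCGC or, for a copy on the other strand, as GCGGCA.
Mest: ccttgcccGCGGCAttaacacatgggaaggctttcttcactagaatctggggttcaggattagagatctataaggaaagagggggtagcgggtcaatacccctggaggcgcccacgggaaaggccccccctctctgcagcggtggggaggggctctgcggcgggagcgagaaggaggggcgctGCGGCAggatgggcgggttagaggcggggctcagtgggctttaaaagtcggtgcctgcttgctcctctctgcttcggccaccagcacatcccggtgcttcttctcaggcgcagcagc
Nap1l5: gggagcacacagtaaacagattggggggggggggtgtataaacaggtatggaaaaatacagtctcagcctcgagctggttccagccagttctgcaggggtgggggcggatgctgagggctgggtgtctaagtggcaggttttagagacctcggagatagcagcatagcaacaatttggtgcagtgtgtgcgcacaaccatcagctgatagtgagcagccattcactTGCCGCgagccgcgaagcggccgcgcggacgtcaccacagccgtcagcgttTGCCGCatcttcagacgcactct
Mcts2: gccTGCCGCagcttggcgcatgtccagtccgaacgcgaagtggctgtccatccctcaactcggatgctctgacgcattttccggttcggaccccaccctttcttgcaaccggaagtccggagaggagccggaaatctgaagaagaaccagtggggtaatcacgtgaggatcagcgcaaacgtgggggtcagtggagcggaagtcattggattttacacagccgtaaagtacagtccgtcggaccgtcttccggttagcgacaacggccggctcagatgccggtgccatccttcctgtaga
Nnat: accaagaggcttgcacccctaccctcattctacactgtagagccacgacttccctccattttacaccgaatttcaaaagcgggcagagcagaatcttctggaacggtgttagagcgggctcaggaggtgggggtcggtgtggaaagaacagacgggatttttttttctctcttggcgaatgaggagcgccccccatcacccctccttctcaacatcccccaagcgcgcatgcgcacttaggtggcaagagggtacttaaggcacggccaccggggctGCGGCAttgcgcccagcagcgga
Plagl1: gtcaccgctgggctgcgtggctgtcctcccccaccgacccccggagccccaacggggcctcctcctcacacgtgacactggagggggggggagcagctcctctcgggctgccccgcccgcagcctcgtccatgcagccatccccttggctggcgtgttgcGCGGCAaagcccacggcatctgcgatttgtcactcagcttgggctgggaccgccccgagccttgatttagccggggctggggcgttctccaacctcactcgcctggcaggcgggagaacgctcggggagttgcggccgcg
Snrpn: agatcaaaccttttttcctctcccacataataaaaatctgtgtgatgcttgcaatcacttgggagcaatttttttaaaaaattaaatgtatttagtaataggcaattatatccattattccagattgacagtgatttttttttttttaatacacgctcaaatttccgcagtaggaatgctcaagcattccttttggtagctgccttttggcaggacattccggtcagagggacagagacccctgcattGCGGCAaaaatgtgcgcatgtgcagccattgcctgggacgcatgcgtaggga

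The Mest window is chr6:30737800-30738099 on the plus strand, and both of its copies lay inside a KAP1 peak of score 626.73, with the peak summit 818 bp away. The Nap1l5 window is chr6:58907077-58907376 on the minus strand, and its 2 copies were 20415 bp from the nearest KAP1 summit. Mcts2 (chr2:152686898-152687197, plus strand) has 1 copy, 12 bp from a KAP1 summit of score 111.29. The Nnat copy (chr2:157559828-157560127, plus strand) was outside any KAP1 peak, 1372 bp from the summit. Plagl1 (chr10:13090582-13090881, plus strand) has 1 copy 55 bp from a KAP1 summit of score 136.72. Snrpn (chr7:60005150-60005449, minus strand) has 1 copy inside a KAP1 peak of score 122.16, with the summit 459 bp away. The hexamer lay within a KAP1 peak at 4 of these 6 promoters, and not at Nap1l5 and Nnat. By symbol, KAP1 was at 11 of the 14 promoters with a germline DMR (78.6%), against 45.1% of all genes. The share over all windows with the hexamer is not given here, so the count shows no link between hexamer and KAP1.

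The hexamer was searched on both strands with no other motif. It was present in 14 of 50 windows of the 36 listed genes in the sequence table (28%), against 3813 of 32851 windows of all genes (11.6%). Genes with a germline DMR at the promoter had it in 7 of 16 windows (43.8%), and the other listed genes in 7 of 34 (20.6%). Mest contributes overlapping windows to the first of these counts. Listed windows also held more CpG, with a median of 15 per window against 7 for all genes. Among windows with 15 or more CpG the share was 38.5% for listed genes and 25.1% for all genes. Airn, Kcnq1ot1, Peg3, Usp29 and Zrsr1 have a germline DMR at the promoter and no TGCCGC in the window. A match describes letters and is not evidence of a bound site.

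KAP1 stood at most promoters of the set, and Ring1b joined it at more than 1 in 3. By the deposited promoter classes, 17 of the 43 listed genes were shared (39.5%; exact Clopper-Pearson 95% interval 25% to 55.6%), against 19.6% of all genes. KAP1 alone marked 12 listed genes (27.9%; 15.3% to 43.7%), against 25.9% of all genes. Ring1b alone marked 4 listed genes (9.30%; 2.59% to 22.1%), against 3.32% of all genes. Gnas stands in both the shared and the Ring1b only class because its promoter rows are classed differently. Either way, KAP1 was at 29 listed promoters (67.4% against 45.1% of all genes) and Ring1b at 20 (46.5% against 22.9%). No promoter row was found for 11 listed genes, or 25.6%, against 51.7% of all genes.

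Matching by accession as well as symbol added Peg10 to the shared genes and Usp29 and Rtl1 to those with KAP1 alone. The counts became 18 shared, 14 KAP1 only and 4 Ring1b only, with 8 genes left without a row. The same matching gave 21.3%, 29.7% and 3.47% of all genes. Among the 37 listed protein-coding genes 16 were shared (43.2%), against 23.2% of all protein-coding genes. When only the upper 50% of scores in each list was used, 11 listed genes were shared (against 9.63% of all genes) and 8 had Ring1b alone (against 5.66%). Intervals cover counting error only, and neighbouring genes can share a peak.

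Over the whole annotated gene, KAP1 peaks lay in 37 of the 43 listed genes (86.0%), against 63.5% of all genes. Ring1b peaks lay in 26 listed genes (60.5%), against 30.4%. Both lay in 24 listed genes (55.8%), against 28%. Listed genes were longer, with a median of 30734 bp against 14306 bp for all genes; the part of length in these shares was not tested. The deposited gene tables placed 18 listed genes in the shared class, 10 in the KAP1 only class and 2, Ndn and Herc3, in the Ring1b only class, against 23%, 24.6% and 1.72% of all genes. A further 13 had no row by symbol (50.7% of all genes), and these tables merge nested genes, carrying Airn in the row of Igf2r, Kcnq1ot1 in that of Kcnq1 and Nnat in that of Blcap. H19, Zim1, Mirg and Usp29 had neither a KAP1 nor a Ring1b peak inside the gene.

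**Figure D1:**
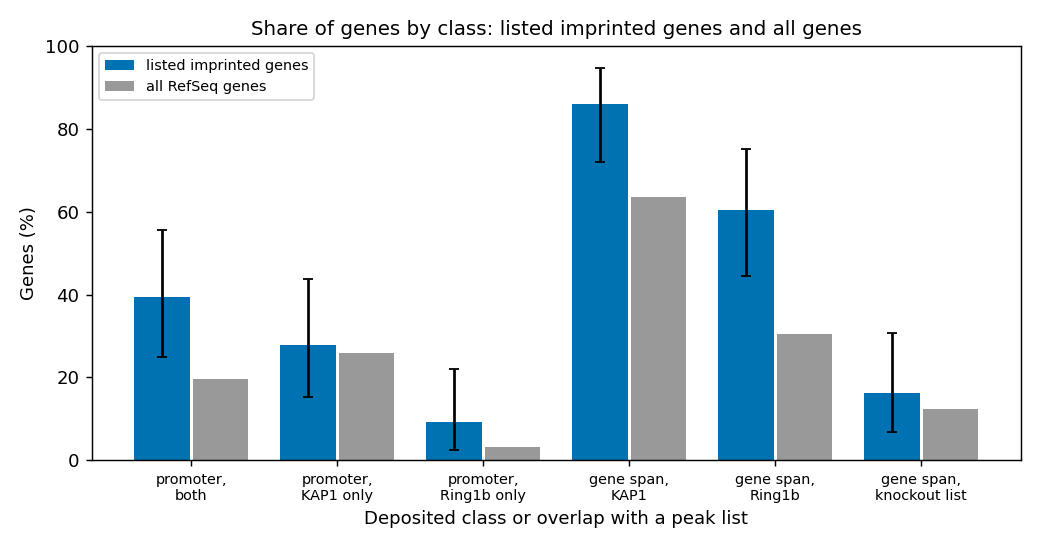
Share of genes (%) in each deposited promoter class or with a peak over the annotated gene, for the 43 listed imprinted genes (blue, with exact 95% intervals) and for all 26219 RefSeq genes (grey). The shared class held 39.5% of listed genes against 19.6% of all genes, while the share with a knockout-list peak was 16.3% against 12.4%.

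The Kcnq1 cluster on chromosome 7 had the most KAP1 and Ring1b peaks of the 17, with 40 and 12 in 536 kb. Per Mb these were 74.6 KAP1 peaks, the median of the 17, and 22.4 Ring1b peaks, against a median of 11.7. Of its Ring1b peaks 10 overlapped KAP1. Cdkn1c, an inhibitor of cyclin-dependent kinases, had a Ring1b peak of 3520 bp with a score of 3100 and a promoter KAP1 score of 84. At Phlda2, which restrains placental growth, the scores were 1924 for Ring1b and 139 for KAP1, with the summits 3 bp apart. Ascl2, a transcription factor of the trophoblast, had 2723 for Ring1b and 145 for KAP1, with the summits of the promoter row 1 bp apart. Its full KAP1 peak in the list was 2464 bp wide and scored 604.49, the second highest over the listed genes, and the summit of that peak lay 719 bp from the Ring1b summit. Kcnq1, a potassium channel gene, had lower scores at its promoter, 343 for Ring1b and 126 for KAP1.

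Kcnq1ot1, the long noncoding RNA that starts inside Kcnq1 at the germline DMR and silences its neighbours, carried KAP1 alone with a score of 138. The KAP1 peak (chr7:143295287-143296694) covered the transcript start, and no Ring1b peak lay in the 83437 bp of the gene. Its nearest Ring1b peak was 57963 bp away. Tssc4 also had KAP1 alone, with a score of 149. Inside Kcnq1 there were 11 KAP1 and 4 Ring1b peaks. The strongest KAP1 peak there scored 548.87 (chr7:143123756-143125200) and overlapped a Ring1b peak of 82.3.

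Peaks between the listed genes of this cluster were chosen after their values were seen. A Ring1b peak of score 2356.13 lay at chr7:143444333-143446991, 11348 bp from Cdkn1c, and overlapped no KAP1 peak. Another of 1093.78 lay 3466 bp from Cdkn1c. The highest KAP1 score of the span was 705.76, in Tspan32 (chr7:143013288-143014105), and this peak ranked in the top 0.203% of the KAP1 list.

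Igf2, the fetal growth factor, had the widest Ring1b peak over the set, 7638 bp with a score of 3100 (chr7:142657579-142665216). KAP1 was weak there, with a promoter score of 64, below the list median of 96.15, and the summit of that peak lay 1586 bp from the Ring1b summit. Another KAP1 peak, of 56.19, had its summit 2 bp from it. H19, the noncoding RNA that shares enhancers with Igf2, had no peak of any list within the gene. In the 72.6 kb between H19 and Igf2, where the paternally methylated control region lies, there were 3 KAP1 peaks and no Ring1b or knockout-list peak. They scored 259.43 (chr7:142579926-142580763, 1.78 kb from H19), 235.85 (chr7:142581299-142582240, 3.15 kb from H19) and 349.16 (chr7:142610643-142611639, 32.5 kb from H19). All 3 exceeded the list median, and they were described after their values were seen.

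**Figure D2:**
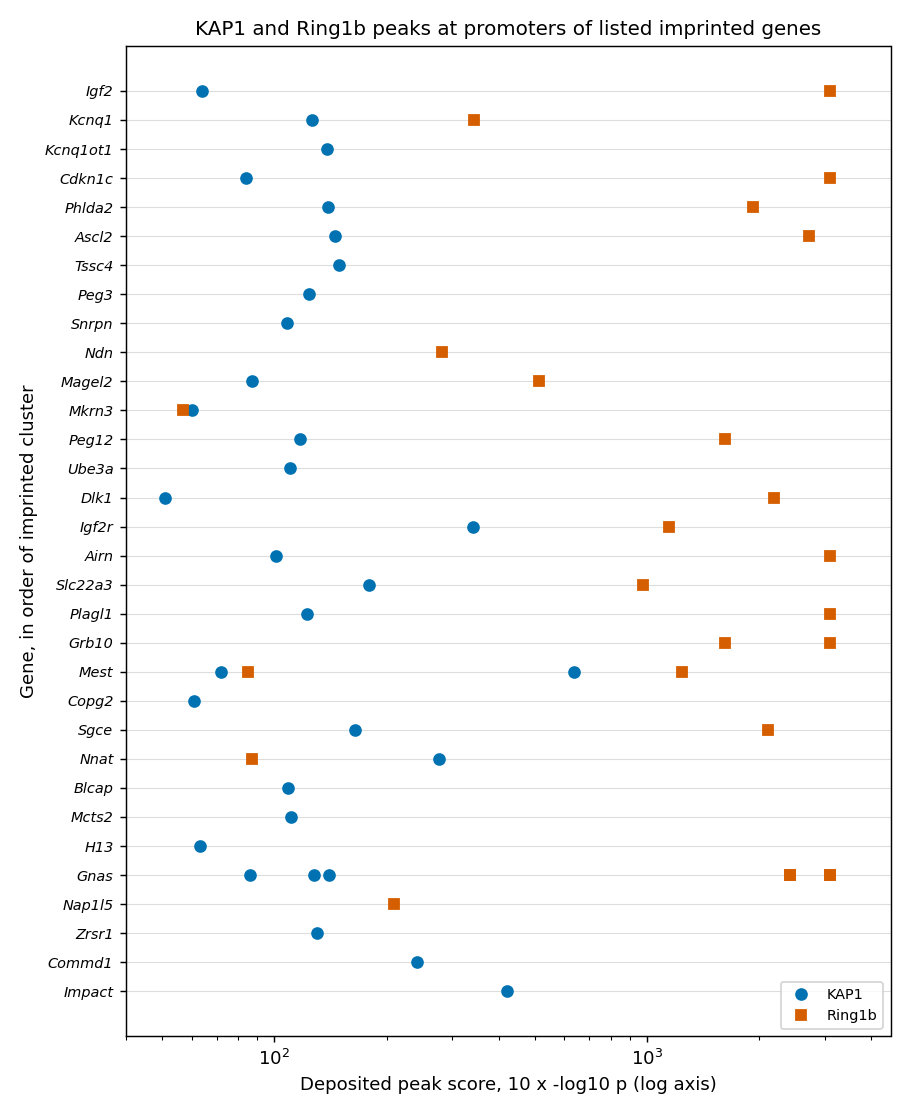
Deposited promoter peak scores (10 times -log10 p, log axis) of each listed gene with a promoter row, in the order of the clusters, with KAP1 as circles and Ring1b as squares; genes with several rows have several points. Ring1b scores ran from 57 at Mkrn3 to 3100 at Igf2, Cdkn1c, Airn, Plagl1, Grb10 and Gnas, while KAP1 scores ran from 51 at Dlk1 to 636 at Mest.

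In the Snrpn cluster, the promoters with Ring1b were those of Ndn, Magel2, Mkrn3 and Peg12, at the far end of the domain. Magel2, a MAGE-family gene, had a Ring1b score of 513 and a KAP1 score of 87. Peg12 had 1618 for Ring1b and 117 for KAP1, with the summits 721 bp apart. A KAP1 peak of 255.32 inside Peg12 (chr7:62462150-62463198), the highest KAP1 score of the span, overlapped the same Ring1b peak. Mkrn3, a ubiquitin ligase gene that holds back puberty, was near the floor in both lists, with 57 for Ring1b and 60 for KAP1. Ndn, another MAGE-family gene, had Ring1b alone with 282, and its nearest KAP1 peak was 26940 bp away. Snrpn, a splicing protein gene whose promoter is the germline DMR, had KAP1 alone with 108, and Ube3a, the ubiquitin ligase gene silenced on the paternal allele in neurons, had KAP1 alone with 110. A Ring1b peak of 186.49 did lie within the long Snrpn transcript, where it overlapped a KAP1 peak of 127.08. The span of 3236 kb held 33 KAP1 and 7 Ring1b peaks, or 10.2 and 2.2 per Mb.

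Peg3, a zinc finger gene, carried KAP1 alone with a promoter score of 124. Its KAP1 peak (chr7:6728886-6729889) lay inside the gene with the summit 1144 bp past the transcript start. Another of 86.74 lay at chr7:6727227-6727710. No Ring1b peak was found in the 293 kb of this cluster, and the nearest to Peg3 was 346536 bp away. Zim1, a zinc finger gene expressed from the maternal allele, had no peak of any list.

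At the Dlk1-Meg3 cluster on chromosome 12, Ring1b was found at 1 gene. Dlk1, a transmembrane protein of the Notch ligand family, had a Ring1b score of 2188 and a KAP1 score of 51, with the summits 50 bp apart. This was the lowest promoter KAP1 score of the set. The noncoding RNA genes Meg3 and Rian had no promoter row, and a single KAP1 peak inside each, of 63.52 and 101.67. Rtl1, a retrotransposon-derived gene, had a KAP1 peak of 76.09, which the promoter table lists under a microRNA symbol. Mirg, the last noncoding RNA gene of the domain, had no peak inside it, and a KAP1 peak of 58.14 lay 313 bp away.

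The 77.7 kb between Dlk1 and Meg3 hold the paternally methylated control region of this cluster. KAP1 peaks of 172.88 (chr12:109527055-109527796) and 172.83 (chr12:109527839-109528818) lay side by side there, 13.2 kb and 12.2 kb before Meg3, and a weaker one scored 56.42. No Ring1b peak of vehicle cells lay in this gap. The knockout list had 3 peaks in it, of 66.88, 66.9 and 98.27, and the peak of 66.9 (chr12:109527480-109527631) lay inside the KAP1 peak of 172.88. These intergenic peaks were also described after their values were seen.

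The Igf2r cluster on chromosome 17 had both proteins at 3 of its 4 listed genes. Igf2r encodes the receptor that clears IGF2, and its promoter had a Ring1b score of 1148 and a KAP1 score of 341, the highest KAP1 score among shared promoters after Mest. Airn, the long noncoding RNA that starts at the germline DMR inside Igf2r and silences the cluster, had a Ring1b score of 3100 and a KAP1 score of 101. Both peaks covered the Airn start, with nearly the same borders (chr17:12741100-12742976 for Ring1b, chr17:12741099-12743092 for KAP1) and summits 18 bp apart. Slc22a3, an organic cation transporter gene, had 976 for Ring1b and 179 for KAP1, with the summits 38 bp apart. Its relative Slc22a2 had no promoter row and 2 KAP1 peaks in the gene, of at most 73.24. Airn had 12 KAP1 peaks over its length, the most of any listed gene.

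Plagl1 and Grb10, which regulate growth, and Gnas, which encodes the stimulatory G protein alpha subunit, all had Ring1b peaks of 3100. Plagl1, a zinc finger transcription factor gene, was shared, with a KAP1 score of 122 and the summits 364 bp apart. Grb10, an adaptor that limits insulin and IGF signalling, had Ring1b alone at both of its promoters, with 1620 and 3100. Its 4 Ring1b peaks lay between chr11:12024091 and chr11:12038944 and none overlapped KAP1. The 8 KAP1 peaks of Grb10 lay between chr11:11942407 and chr11:11975166, towards the other end of the gene, with a highest score of 331.02. The Ring1b peak of 3100 spanned 3744 bp and covered a transcript start of Grb10.

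Gnas had 4 promoter rows, 3 shared and 1 with Ring1b alone. Its Ring1b scores were 2414, 2422 and, at the pair of downstream promoters, a single peak of 3100 spanning 4659 bp. The KAP1 scores at the shared rows were 140, 128 and 86. The Ring1b peak of the row with Ring1b alone (chr2:174297880-174301058) overlapped a KAP1 peak of 291.28 (chr2:174299203-174301087), the highest KAP1 score in Gnas. That KAP1 peak lay outside the window of the row, which ended at chr2:174298858. Ring1b peaks covered 12.5 kb of the 62.4 kb gene, the highest share of the 17 spans.

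Mest, a hydrolase-fold gene, had the highest KAP1 score of the set. The KAP1 peak (chr6:30736891-30739059) scored 626.73 in the list and 636 in the promoter table, and stood in the top 0.365% of the list. Its summit lay 753 bp past the DMR-linked transcript start. Ring1b was split there, with a peak of 1241.25 upstream and one of 105.65 over the start, and the deposited row pairs the KAP1 summit with the upstream peak, 3056 bp away, while the nearer Ring1b summit lay at 531 bp. At the other, upstream Mest promoter the scores were 85 for Ring1b and 72 for KAP1. Copg2, a vesicle coat subunit gene that overlaps the end of Mest, had KAP1 alone with 61.

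Peg10 and Sgce, a sarcoglycan gene, diverge from a common promoter. A Ring1b peak of 2115 and a KAP1 peak of 165 lay there, with summits 997 bp apart. Further KAP1 peaks followed along both genes, giving 9 in the span of 86.2 kb, and the Ring1b peak was the only one.

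Several further DMR-bearing genes lie inside a host gene. Nnat, a brain proteolipid gene inside Blcap, had 3 weak Ring1b peaks around its start, of 86.62, 83.14 and 65.15, and a KAP1 peak of 275.75 whose summit was 1401 bp past the start. Blcap had KAP1 alone at its own promoter, with 109. Mcts2, a retrogene inside H13, had KAP1 alone with 111, and H13, which encodes the signal peptide peptidase, had KAP1 alone with 63. H13 held 10 KAP1 peaks, and KAP1 covered 15.1% of the span, the highest of the 17. Zrsr1, a retrogene for a splicing factor inside Commd1, had KAP1 alone with 130, and Commd1, a copper homeostasis gene, had KAP1 alone with 242. The strongest KAP1 peak within Commd1 scored 337.34.

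Impact, a regulator of translation, had KAP1 alone with a promoter score of 421. Its list peak scored 436.48, the fourth highest over the set, and the nearest Ring1b peak was 310086 bp away. Nap1l5, a nucleosome assembly protein relative inside Herc3, was the exception among the genes with a DMR at the promoter. It had Ring1b alone, with 209, and its nearest KAP1 peak was 20240 bp from the gene. Herc3, a ubiquitin ligase gene, and Inpp5f, a phosphoinositide phosphatase gene, had no promoter row. Each had 1 KAP1 peak inside the gene, of 256.94 in Herc3 and 123.09 in Inpp5f. The Herc3 peak overlaps the annotated start of the gene, although the deposited gene table classes Herc3 as Ring1b only.

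**Figure D3:**
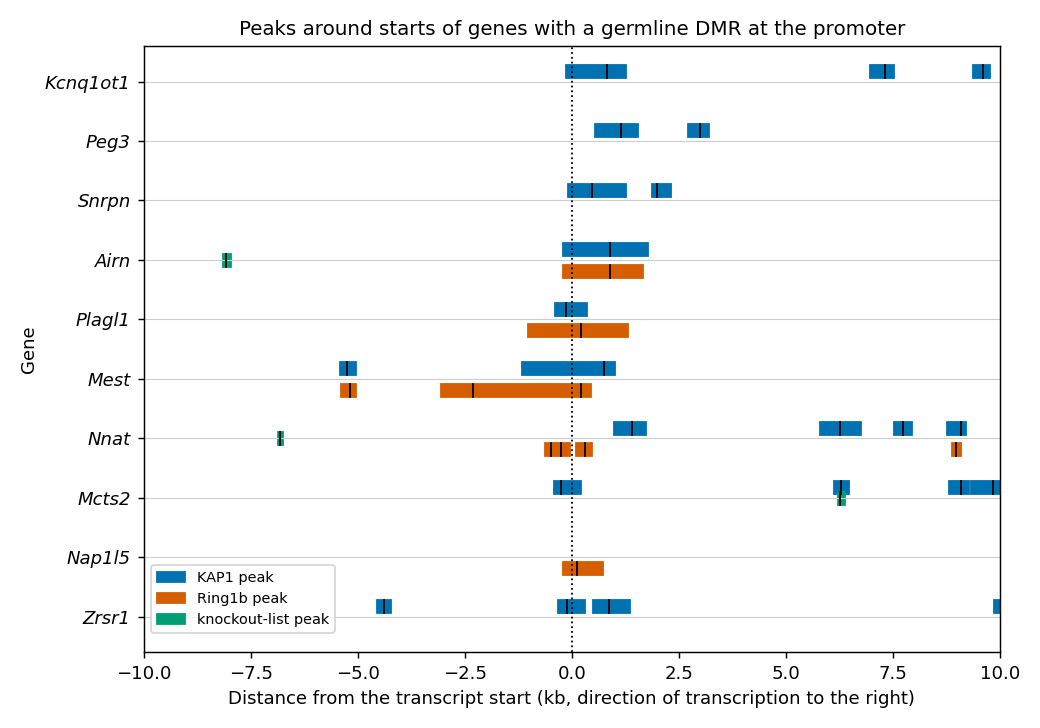
KAP1 (blue), Ring1b (orange) and knockout-list (green) peaks within 10 kb of the transcript start of 10 listed genes with a germline DMR at the promoter; the axis gives kb from the start in the direction of transcription, and black ticks mark summits. KAP1 peaks lay at or just past the start of each gene shown except Nap1l5, and Ring1b peaks lay near the start at Airn, Plagl1, Mest, Nnat and Nap1l5.

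Listed genes were next grouped by where the germline DMR lies, a grouping taken from general knowledge of mouse imprinting and not from the files. With accession matching, 13 of the 14 genes with the DMR at the promoter had KAP1 there, 6 with Ring1b and 7 without, and Nap1l5 had Ring1b alone. By symbol the count was 11 of 14 (78.6%), against 45.1% of all genes by symbol and 50.6% by accession. Genes with the DMR inside the gene had KAP1 at 5 of 8 promoters, and genes with no germline DMR of their own at 13 of 21 (61.9%). With the upper 50% of KAP1 scores these counts were 11, 4 and 7, against 33.6% of all genes. Ring1b was at 6 of 14, 3 of 8 and 11 of 21 promoters in the same order, against 22.9% of all genes. The 7 genes with a DMR at the promoter and KAP1 alone were Kcnq1ot1, Peg3, Usp29, Snrpn, Mcts2, Zrsr1 and Impact. In the accession counts Usp29 shares its promoter row and KAP1 peak with Peg3, and Peg10 shares its row with Sgce. The genes of each pair are therefore not independent.

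Median promoter KAP1 scores were 127 with the DMR at the promoter (12 rows), 128 with it inside the gene (7 rows) and 110 without one (13 rows). Median Ring1b scores were 1241, 2422 and 1618 in 7, 7 and 11 rows. The Ring1b rows with the DMR inside the gene came from Igf2r, Grb10 and Gnas alone, and rows of the same gene are not independent. Over all 32 listed promoter rows with KAP1 the scores ran from 51 to 636 with a median of 123, against 132 over 12155 rows of all genes. Over 25 listed rows with Ring1b the lowest was 57, the median 1924 and the highest 3100, against a median of 241 over 6120 rows. Of the listed Ring1b rows 17 (68%) reached 1000, against 25.7% of all rows. Ring1b thus scored high and KAP1 near the middle of its list at the listed promoters. Peaks over the bodies of listed genes behaved alike, with a median of 106.52 for 118 KAP1 peaks and 343.36 for 37 Ring1b peaks, against 96.15 and 116.36 in the whole lists. Of those 37 Ring1b peaks 25 overlapped KAP1, against 10353 of the 13516 in the list (76.6%).

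Where both proteins were present, the distance between the summits paired in the deposited rows varied widely. In 20 shared rows of listed genes the median distance was 285 bp, from 1 bp at Ascl2 to 3056 bp at Mest, against 232 bp over 5236 shared rows of all genes. Summits were within 100 bp of each other in 8 listed rows (40%), against 35.2% of all rows, and over 1 kb apart in 4 (20%), against 11.5%. Genes with the DMR at the promoter had a median of 680.5 bp in 6 rows and those with it inside the gene 629 bp in 4 rows. The 4 rows came from Igf2r and Gnas alone, and both Mest promoters are among the 6. Rows of the same gene are not independent. Genes with no germline DMR of their own had a median of 44 bp in 10 rows, and 6 of these 10 were within 100 bp. These values depend on which summits are paired. With the nearest list summits within each row, chosen after seeing the data, the medians were 348 bp in the group with the DMR at the promoter, 479 bp in that with it inside the gene and 44 bp in that without. Over all listed rows the median was then 158.5 bp, against 151 bp over rows of all genes, and 8 listed rows (40%) were within 100 bp, against 42.9%. By this pairing Igf2 stood at 2 bp and Ascl2 at 719 bp. No test of this difference was made.

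**Figure D4:**
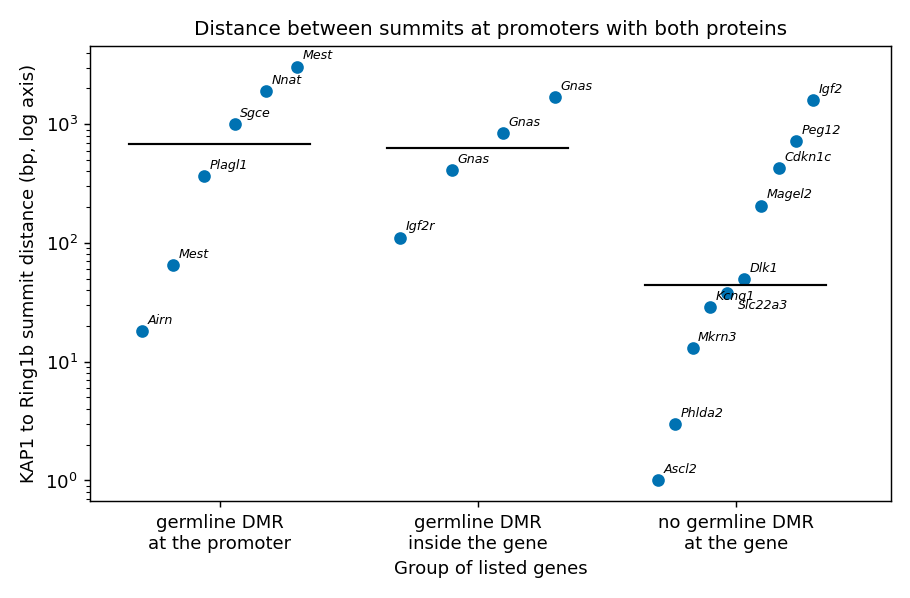
Distance between the KAP1 and the Ring1b summit (bp, log axis) at each shared promoter row of a listed gene, as paired in the deposited row, grouped by the position of the germline DMR, with lines at the group medians. Medians were 680.5 bp and 629 bp in the groups with a DMR at the promoter or inside the gene, and 44 bp in the group without. Gnas and Mest have several rows, and the group with the DMR inside the gene holds only Igf2r and Gnas.

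By cluster, KAP1 peaks were present in all 17 spans, Ring1b peaks in 14 and knockout-list peaks in 6. The Peg3, Zrsr1 and Impact spans had no Ring1b peak. The spans add up to 5.70 Mb and held 170 KAP1 peaks (29.8 per Mb, against 30.9 per Mb over the genome), 44 Ring1b peaks (7.72 against 5.03 per Mb) and 21 knockout-list peaks (3.68 against 3.32 per Mb). The sparse Snrpn span sets these figures; without it they were 55.6, 15.0 and 6.49 per Mb. The median over the 17 clusters was 74.6 KAP1 peaks per Mb, from 6.83 in the Peg3 span to 255 in the Mcts2 span. Short spans are mostly gene, so their densities are not those of long spans.

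**Figure D5:**
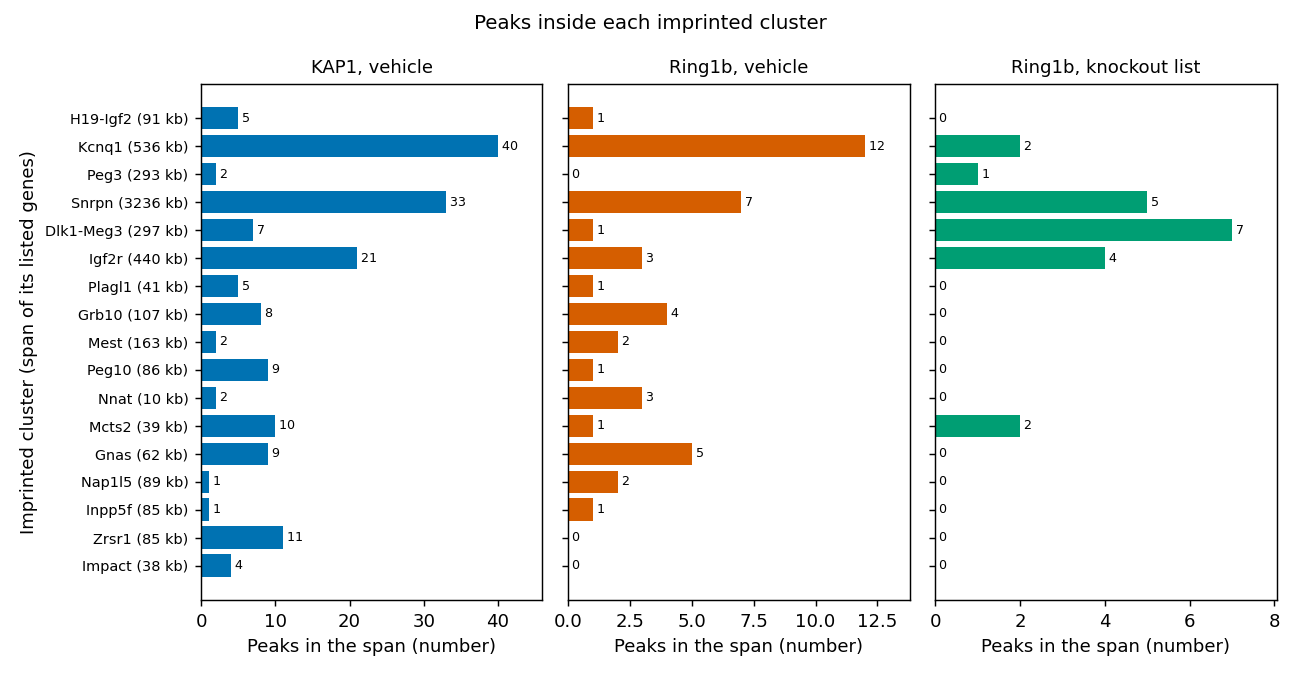
Number of peaks inside each of the 17 imprinted cluster spans (first to last base of the listed genes, length in brackets) in the KAP1, Ring1b and knockout lists. The Kcnq1 span held 40 KAP1 and 12 Ring1b peaks, and the Dlk1-Meg3 span held 7 of the 21 knockout-list peaks.

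Ring1b peaks of the knockout list lay within 7 of the 43 annotated listed genes (16.3%; 6.81% to 30.7%), a share near the 12.4% of all genes. None lay in a deposited promoter row of the 32 listed genes that have one, which allows a share of up to 9.38%, against 3.27% of all genes with such a row and 1.58% of all genes. Within 1 kb of a RefSeq start, a choice made after seeing the data, 1 of 36 listed genes had one, Meg3 with a peak of 53.67, against 2.31% of all genes in the sequence table. The 11 peaks had a median score of 59.73, close to the list median of 58.86. Slc22a3 had the highest, 127.28 and 125.38, at adjoining positions (chr17:12447400-12447825). Igf2r had 74.11 and 58.99, H13 67.55 and 57.04, Meg3 59.73 and 53.67, Usp29 60.71, Rian 58.63 and Kcnq1 50.75. None of the 11 peaks overlapped a Ring1b peak of vehicle cells, and 3 overlapped KAP1, in Meg3, Rian and H13. The matching shares over the whole knockout list are not given here. These counts therefore do not set the listed genes apart from other genes. Of the 21 knockout-list peaks in the 17 cluster spans, the Dlk1-Meg3 span held 7 (23.6 per Mb), 3 of them over listed genes. Since the control of this list is another cell line and no Ring1b library of vehicle-treated KAP1 fl/fl cells was analysed here, a change caused by KAP1 loss and a difference between lines cannot be told apart.

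Grouped by the allele that is expressed, KAP1 was at the promoter of 16 of 21 paternally expressed genes (76.2%, interval 52.8% to 91.8%). It was at 9 of 15 maternally expressed genes (60%, interval 32.3% to 83.7%), against 45.1% of all genes. Ring1b was at 12 (57.1%, interval 34% to 78.2%) and 6 (40%, interval 16.3% to 67.7%) in the same order, against 22.9%. For each protein the intervals of both groups overlap, and that of maternally expressed genes includes the share of all genes. Accession matching gave 19 and 9 for KAP1, against 50.6% of all genes, and 13 and 6 for Ring1b, against 24.7%. The 6 maternally expressed genes without a promoter row were H19, Meg3, Mirg, Rian, Slc22a2 and Zim1, of which 4 are noncoding. Of 7 genes whose imprinting depends on the isoform or tissue, KAP1 was at 4 and Ring1b at 2. Knockout-list peaks lay in 5 of 15 maternally expressed genes (33.3%; 11.8% to 61.6%), namely Igf2r, Kcnq1, Meg3, Rian and Slc22a3. Of 21 paternally expressed genes 1 had such a peak, Usp29 (4.76%; 0.12% to 23.8%). Both intervals include the 12.4% of all genes.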

How the data were processed

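The authors sequenced 5 ChIP libraries, 1 per group. The submitters' processing notes name MACS 1.4.2, bedtools 2.16.2, Bowtie2 and CASAVA 1.8.2, and the build mm10 (GRCm38). Used here were 3 peak lists and 6 tables of promoters and genes as the authors deposited them; the score in each is 10 times -log10 p, per the file headers. No source used here states how the tables were made or how deep each library was read, so depth is unknown. KAP1 promoter rows shared borders with the list peak in 16 of 32 listed rows and the summit in 31, so their scores can differ from the list. At Ascl2, where the summit also differed, the row gave 145 and the list peak 604.49.

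Peaks were overlapped with gene spans by at least 1 bp in Python 3.11.15 (pandas 2.3.3, numpy 2.4.6, scipy 1.17.1); the overlap was tested on simulated data. Gene spans and promoter sequences are RefSeq GRCm38.p6; sequences matched 36 listed genes. Coordinates are 1-based. Shares carry exact Clopper-Pearson 95% intervals, and a count of 0 allows up to 3 counts; both cover counting error only. Every listed gene is accounted for by class, the 5 highest KAP1 and Ring1b peaks over the set are named, and up to 4 genes per other list by KAP1 score. Germline DMR and allele groups come from general knowledge. The listed genes and lists were chosen with earlier results of these data known. Alternatives were a stricter overlap, higher scores, wider windows and accession matching.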

Additional observations from a re-analysis of the deposited data

How the results depend on the processing

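Of the recomputed values, 70 stayed within 1.5 times the reported one and 15 did not. With the upper 50% of scores, 11 listed promoters were shared, 8 had Ring1b alone, and 7 of the genes without a germline DMR had KAP1, while densities were 14.6 KAP1 and 4.91 Ring1b peaks per Mb. Without the Snrpn span, which was chosen after seeing the data, densities were 55.6, 15.0 and 6.49 per Mb for KAP1, Ring1b and the knockout list. Listed genes without a promoter row numbered 7 among protein-coding genes, and those without a gene row 4 by overlap with the annotated span and 5 by accession, also chosen after seeing the data. TGCCGC was in 25.1% of all windows with at least the listed median CpG. With the nearest list summits, chosen after seeing the data, median summit distances were 158.5 bp in listed rows, 151 bp in all rows and 348 bp with the DMR at the promoter. The settings differ in the peaks or genes counted, and no other cause was tested. Unknown depth limits any statement that a protein was absent. No paired analysis was possible because each group has 1 library.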

Other observations

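A further 45 imprinted genes outside the set were counted the same way. Their promoters were shared in 16 (35.6%), KAP1 only in 15 (33.3%) and Ring1b only in 2 (4.44%), against 19.6%, 25.9% and 3.32% of all genes. The highest promoter KAP1 scores among them were 265 at Qpct, a glutaminyl cyclase gene, 215 at Gab1, a signalling adaptor gene, 214 at Bcl2l1, an apoptosis inhibitor gene, and 201 at Atp10a, a phospholipid transporter gene. Qpct, Gab1 and Atp10a also had Ring1b, with scores of 299, 1245 and 1926, and Bcl2l1 did not. Knockout-list peaks lay in 12 of the 45 genes (26.7%, interval 14.6% to 41.9%), against 12.4% of all genes. The part of gene length in this share was not tested. None lay in the promoter row of the 32 genes that have one. This allows a share of up to 9.38%, against 3.27% of all genes with a row.

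Genes for 28 factors that keep or remove imprints were mostly marked by KAP1. KAP1 alone was at 13 promoters (46.4%, against 25.9% of all genes) and both proteins at 8 (28.6%, against 19.6%). Dnmt3a stands in both of these classes, so KAP1 was at 20 of the 28 genes (71.4%), against 45.1% of all genes. Ring1b alone was at none, which allows a share of up to 10.7%, against 3.32% of all genes. The highest KAP1 scores were 357 at Cbx5, a heterochromatin protein gene, 297 at Dnmt3b, a DNA methyltransferase gene, 276 at Rnf2 and 237 at Trim28. Rnf2 and Trim28 encode Ring1b and KAP1 themselves, and their promoters also had Ring1b, with scores of 87 and 209. They are also the genes deleted in the control libraries, Rnf2 for Ring1b peaks and Trim28 for KAP1 peaks. The part of the deletion in their scores was not tested. All 28 genes had a KAP1 peak within the gene, against 63.5% of all genes. Cbx1 and Dnmt3l, which encode a heterochromatin protein and a cofactor of DNA methyltransferases, had a knockout-list peak at the promoter. They are 2 of the 28 genes (7.14%; 0.88% to 23.5%), an interval that includes the 1.58% of all genes.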
